A study of Mus musculus with 6 samples.

Results

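Cytosolic ribosomal protein genes were followed across 6 mouse liver arrays, 3 from mice given Vascepa and 3 from mice given vehicle. The members were the genes whose symbol follows the Rpl or Rps naming pattern, with Rplp0, Rplp1, Rplp2 and Rpsa, and that had an array probe annotated with that gene alone. They came to 67 of the 22180 genes with such a probe. Where a gene had several probes of its own, the one with the highest mean over the 6 arrays was chosen by that measured level, so the level itself is given as a description. All mice were male C57BL/6, 8 weeks old before 1 week of acclimatization. The Vascepa group was dosed for 7 days and then fed a high-fat diet for 6 weeks, and the vehicle group had the same 7 days and the same diet with vehicle instead. Vascepa is a prescription medicine made of icosapent ethyl, an ester of the marine omega-3 fatty acid eicosapentaenoic acid. Every mouse was on the high-fat diet, and no group on another diet was analysed here. No dose and no route were given in the labels, and the labels leave unsaid whether each sample is its own mouse, so a p-value here covers the spread between arrays of a group, and that spread may be technical.

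Ribosomes build every protein of the cell from a small subunit that reads the messenger RNA and a large subunit that joins the amino acids. Each subunit is a core of ribosomal RNA dressed with ribosomal proteins, and most of these are needed in a single copy per ribosome. Their genes are known to be transcribed and translated together. Ribosomal protein messenger RNAs of mammals usually begin with a C followed by a run of C and T, the 5′ terminal oligopyrimidine (TOP) tract, through which mTORC1 and the LARP1 protein set their translation in step with nutrients. Their genes are compact, and the introns of many carry small nucleolar RNAs, which guide the chemical modification of ribosomal RNA.

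Of the 67 members, 65 were annotated as protein-coding, while Rpl6l is a pseudogene and Rps4l a transcribed pseudogene. RefSeq lists 89 symbols of this kind, and the other 22 had no probe of their own: 12 were named only on probes shared with other genes and 10 on no named probe. Values are log2 intensities. The level that a probe had to reach to be tested was 2.65, the median of all probe means, and 53 of the 67 members reached it, out of 13493 genes tested. The 14 dimmer members were Rpl10l, Rpl11, Rpl17, Rpl22l1, Rpl27a, Rpl30, Rpl32l, Rpl37, Rpl39, Rpl3l, Rpl6, Rplp2, Rps14 and Rps15. Just under that level lay Rpl39 at 2.59 and Rpl17 at 2.63, and just above it Rpl22 at 2.86 and Rps16 at 2.89. A probe's brightness depends on its own sequence, so a dim probe does not show that its gene was silent.

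The start sites of some members are shown because the TOP tract begins there and because these genes carry the comparisons below. RefSeq promoter entries of the assembly GRCm38.p6 were found for 52 of the 67 members. Each window runs from 30 bases before to 20 bases after the annotated start, 5′ to 3′ on the transcribed strand, and capitals mark the longest run of C and T that touches the 20 bases on either side of the start. The first 5 lines are genes that will be described as moving with the small nucleolar RNAs or as the widest in range, and the last 3 are genes that did not follow them.
Rps18 (chr17:33955646-33955695, minus strand): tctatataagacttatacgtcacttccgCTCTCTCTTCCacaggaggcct
Rps6 (chr4:86857348-86857397, minus strand): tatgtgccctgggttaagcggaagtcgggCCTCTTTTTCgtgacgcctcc
Rps10 (chr17:27635225-27635274, minus strand): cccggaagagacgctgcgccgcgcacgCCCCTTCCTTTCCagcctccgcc
Rps27l (chr9:66946056-66946105, plus strand): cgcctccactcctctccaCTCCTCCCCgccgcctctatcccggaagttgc
Rps7 (chr12:28635934-28635983, minus strand): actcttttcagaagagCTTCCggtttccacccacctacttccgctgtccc
Rpl4 (chr9:64173357-64173406, plus strand): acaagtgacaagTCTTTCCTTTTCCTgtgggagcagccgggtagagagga
Rpl5 (chr5:107900498-107900547, plus strand): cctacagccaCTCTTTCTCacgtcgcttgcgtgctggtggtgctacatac
Rps23 (chr13:90923092-90923141, plus strand): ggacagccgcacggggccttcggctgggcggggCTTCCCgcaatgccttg

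A run of at least 8 bases that were all C or T lay within 20 bases of the start, on the transcribed strand, in 26 of the 52 members, or 50%. Among 17439 other protein-coding genes the share was 18.2%. The letters CCGGAAG or CTTCCGG, the core bound by Ets-family factors read on both strands over 300 bases, occurred in 44.2% of members and 12.9% of the others. ATGGCG or CGCCAT, the core bound by YY1, occurred in 36.5% of members and 12.3% of the others. The C and T run was present in 17 of 32 members that followed the small nucleolar RNA level and in 5 of 10 tested members that did not. These shares were 53.1% and 50%. The 32, unlike the 10, include a member under the filter level, Rpl22l1, which has the C and T run and the YY1 core. The Ets core was present in 15 of the 32 (46.9%) and in 2 of the 10 (20%), and the YY1 core in 11 of the 32 (34.4%) and in 4 of the 10 (40%), and none of these differences was tested. A match is only a match of letters in the window.

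Vascepa replicate 3 stood apart from the other arrays. Over all probes it correlated with the other 5 arrays at r between 0.934 and 0.959, while the other pairs lay between 0.967 and 0.981. Hepatocyte markers were present on every array, 8 of 8 at or above the filter level, with a mean log2 level of 11.70, 11.43 and 11.00 on Vascepa replicates 1, 2 and 3, and 11.67, 11.46 and 11.55 on the vehicle replicates. The tissue label is thus matched, with the hepatocyte mean lowest on Vascepa replicate 3. Markers of Kupffer cells, the resident macrophages of the liver, averaged 5.75 to 5.97 on Vascepa arrays and 6.10 to 6.18 on vehicle arrays. Of these 8 markers, 3 had an unadjusted limma p under 0.05, as did 2.68% of all genes. Lymphocyte markers, 6 of 8 at or above the filter level, averaged 3.03 to 3.16 on Vascepa and 3.15 to 3.25 on vehicle arrays, so the groups overlapped. Skeletal muscle markers, 4 of 5, lay at 3.29 to 3.51 on Vascepa and 3.01 to 3.12 on vehicle arrays, with 1 at an unadjusted limma p under 0.05. The means of endothelial, stellate, bile duct and pancreatic acinar markers also overlapped between the groups. The part of these cell types in the members' values was not tested, and in bulk liver fewer cells of a type and less RNA per cell cannot be told apart.

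No ribosomal protein gene passed limma's test for a difference between Vascepa and vehicle livers. The lowest Benjamini-Hochberg adjusted p of any member was 0.976, and 0 of 53 members passed at an unadjusted p under 0.05, where the lowest p was 0.121. Of all 13493 genes, 0 passed after adjustment (0.0%) and 362 before it (2.68%), of which 141 were higher in Vascepa livers (1.04%). The members leaned toward higher levels in Vascepa livers, but by little: 42 of 53 had a difference above 0, against 39.9% of all genes. Their median difference, Vascepa minus vehicle, was 0.12 on the log2 scale, against −0.06 for all genes, and single members ran between −0.60 and 0.66. The large subunit had 24 of 30 tested members above 0 with a median of 0.11, and the small subunit 18 of 23 with a median of 0.21.

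This lean rested on single arrays. Without Vascepa replicate 3 the median difference of the members was −0.15 and 7 of 53 were above 0. Without vehicle replicate 1 the median was −0.03 and the count 23. Leaving out Vascepa replicate 2 gave a count of 31, and leaving out vehicle replicate 3 gave 38. With either Vascepa replicate 1 or vehicle replicate 2 left out it was 45. Without Vascepa replicate 1, 15 of 53 members and 2018 of 13493 genes had an unadjusted limma p under 0.05, a larger share of the members than of all genes. The groups then did not overlap for 18 of 53 members (34.0%) and 31.8% of all genes, so the share without overlap was close to the background. With any other array left out, 0 or 1 member had an unadjusted limma p under 0.05. Centring each array on the median of all its probes left 33 of 53 above 0, and centring on the named probes above the filter level left 46.

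The spread inside the groups was larger than the difference between them. The median distance between the highest and the lowest array of a member was 1.27 log2 units among Vascepa livers and 0.67 among vehicle livers, while the median size of a group difference was 0.17. For all 13493 genes the median spread was 0.60 in Vascepa and 0.40 in vehicle livers. All 53 members had a group difference smaller than their own spread among the Vascepa arrays. The groups did not overlap for 2 of the 53. Rps4l was higher in every Vascepa liver than in any vehicle liver, as were 3.13% of all genes, and Rpl7l1 was lower in every one, as were 5.11%.

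Among small subunit genes Rps7 and Rps20 had the widest positive differences. Rps7, a small subunit protein needed early in ribosome assembly, read 4.59, 4.97 and 5.95 in Vascepa livers, against 4.24, 5.08 and 4.30 in vehicle livers. The groups overlapped, with Vascepa replicate 3 above all other arrays, and the means were 5.17 ± 0.70 in Vascepa and 4.54 ± 0.47 in vehicle livers (SD, n = 3 each). The difference was 0.63 (SE 0.38, limma adjusted p = 0.976), and 0.24 without Vascepa replicate 3. Rps20, a protein of the head of the small subunit, read 2.73, 4.54 and 4.93 in Vascepa livers, against 3.28, 4.03 and 2.90 in vehicle livers. It had its lowest and its highest value both among the Vascepa arrays. Its difference of 0.66 (SE 0.56, limma adjusted p = 0.976) became 0.23 without Vascepa replicate 3. A dimmer Rps20 probe, also above the filter level, gave a difference of 0.01, and the mean of both probes gave 0.34.

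Rps4l, a transcribed pseudogene copy of the Rps4 family with a span of 941 bases, had the smallest p of any member. Its levels were 4.03, 3.84 and 4.26 in Vascepa livers, against 3.82, 3.47 and 3.79 in vehicle livers, and the difference was 0.35 (SE 0.20, limma adjusted p = 0.976). The lowest Vascepa array stood just above the highest vehicle array. Its coding counterpart Rps4x, a small subunit protein of the X chromosome, did not share this: it read 8.46, 8.90 and 8.54 in Vascepa livers, against 8.69, 8.78 and 8.72 in vehicle livers, a difference of −0.09 (SE 0.19). Transcripts of near-identical copies can share a probe's signal, so a pseudogene's value may hold signal of its family.

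Rps29 and Rps10 completed the 5 members with the smallest p among those higher in Vascepa livers. Rps29, a zinc-binding protein of the small subunit head, read 4.91, 5.32 and 5.42 in Vascepa livers, against 4.91, 5.01 and 5.11 in vehicle livers, a difference of 0.21 (SE 0.20, limma adjusted p = 0.976), and 0.10 without Vascepa replicate 3. Both groups shared their lowest value to 2 decimals. Rps10, a small subunit protein that is ubiquitinated when ribosomes collide, read 5.38, 5.71 and 6.55 in Vascepa livers, against 5.07, 6.04 and 5.51 in vehicle livers. Its difference was 0.34 (SE 0.36, limma adjusted p = 0.976) and 0.01 without Vascepa replicate 3.

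On the lower side, Rpl7l1 and Rps23 came first. Rpl7l1, a paralog of Rpl7 that acts in ribosome assembly, read 4.15, 4.69 and 4.71 in Vascepa livers, against 4.81, 4.94 and 4.74 in vehicle livers. All Vascepa arrays lay below all vehicle arrays, the closest pair by a few hundredths, and the difference was −0.31 (SE 0.21, limma adjusted p = 0.976), and −0.13 without Vascepa replicate 1. Rps23, a protein of the decoding centre whose prolyl hydroxylation tunes accuracy, read 3.99, 3.08 and 1.81 in Vascepa livers, against 3.44, 3.74 and 3.49 in vehicle livers. The Vascepa arrays held both its highest and its lowest value, and its order within that group was the reverse of most members. Its difference was −0.60 (SE 0.48, limma adjusted p = 0.976) and −0.02 without Vascepa replicate 3.

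Rpl5, Rpl29 and Rps16 were the other members with the smallest p on the lower side. Rpl5, which carries the 5S ribosomal RNA into the large subunit and with it restrains Mdm2, read 2.55, 2.97 and 3.44 in Vascepa livers, against 3.43, 3.43 and 2.80 in vehicle livers, a difference of −0.23 (SE 0.29). Rpl29, a large subunit protein also known as a heparin-binding protein, read 9.28, 9.55 and 9.62 in Vascepa livers, against 9.32, 9.89 and 9.70 in vehicle livers, a difference of −0.15 (SE 0.21). Rps16, a small subunit protein whose tail touches the transfer RNA, read 2.91, 2.76 and 2.66 in Vascepa livers, against 3.46, 3.33 and 2.23 in vehicle livers, a difference of −0.23 (SE 0.33). All 3 had overlapping groups, and limma's adjusted p was 0.976 for each. The difference was −0.01 for Rpl5 without Vascepa replicate 1, −0.03 for Rpl29 without vehicle replicate 2 and −0.0032 for Rps16 without vehicle replicate 1. Rps16 lay just inside the filter level.

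What the members did share was an order of the arrays that did not follow the groups. Relative to each gene's mean over the 6 arrays, the median of the 53 members was −0.61, 0.19 and 0.63 on Vascepa replicates 1, 2 and 3, against −0.36, 0.29 and −0.09 on the vehicle replicates. The same median over all genes was 0.04, −0.01 and −0.09 in the Vascepa livers, against 0.04, 0.01 and 0.05 in the vehicle livers. The highest of all 6 arrays was Vascepa replicate 3 for 43 of 53 members, and the lowest was Vascepa replicate 1 for 43 of 53. Within the vehicle group 48 members were highest on replicate 2 and 46 lowest on replicate 1. The members therefore moved as a block between arrays of the same group.

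**Figure D1:**
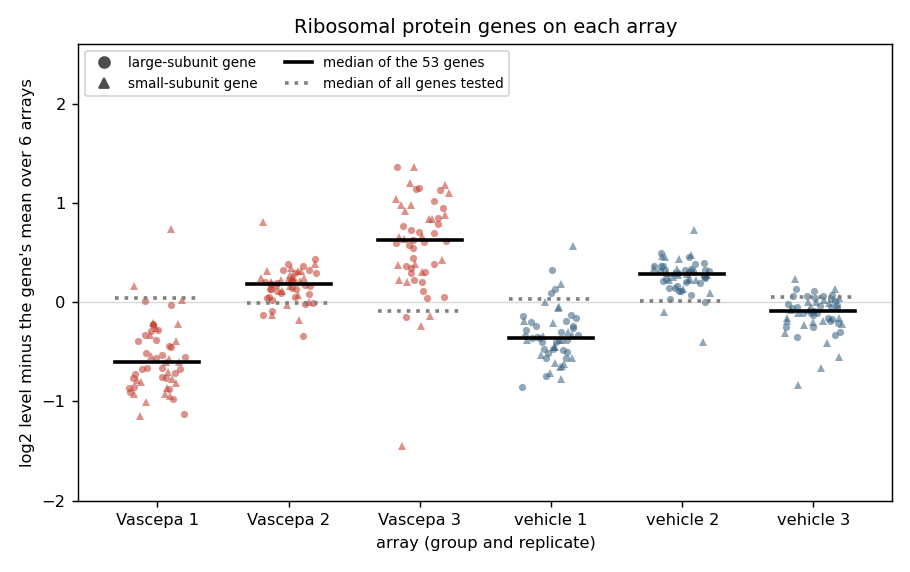
Log2 level minus the gene's mean over the 6 arrays (vertical axis) on each array, Vascepa arrays left and vehicle arrays right, with 1 symbol per tested ribosomal protein gene (circles for the large subunit, triangles for the small), solid bars at the median of the 53 genes and dotted bars at the median of all genes tested. The solid bars lie at −0.61, 0.19 and 0.63 for the Vascepa livers, against −0.36, 0.29 and −0.09 for the vehicle livers, and the dotted bars between −0.09 and 0.05.

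The mean small nucleolar RNA level of the same arrays had the same order within each group. The mean log2 level of 68 small nucleolar RNA genes was 5.67, 6.82 and 7.36 on Vascepa replicates 1, 2 and 3, against 5.80, 6.69 and 6.06 on the vehicle replicates. Of the 68 genes that set this mean, 61 had a difference above 0, with a median of 0.45. The order of the mean was that of 44 of the 68 genes themselves (64.7%). Of the 53 members, 40 had their arrays in exactly that order within both groups, or 75.5%. Of all 13493 genes 10.3% did, and 17.7% had the opposite order in both groups. A single member, Rpl4, had the opposite order. The comparison is a description over 6 arrays, in which all members share the same RNA samples and normalization. With any single array left out, which leaves fewer arrays to order, the count lay between 41 and 44 and the share of all genes between 13.9% and 17.1%, and the count was 43 without Vascepa replicate 3. It was 36 with arrays centred on their medians and 32 when all own probes of a gene were averaged.

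**Figure D2:**
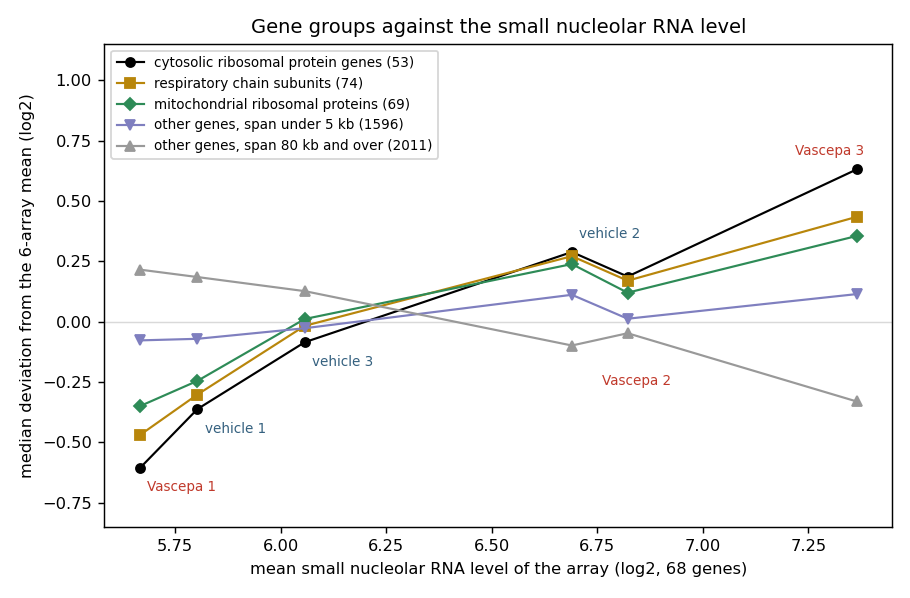
Median deviation of the 53 ribosomal protein genes on each array (vertical axis, log2 units from each gene's mean) against the mean log2 level of 68 small nucleolar RNA genes on that array (horizontal axis), with other gene sets for comparison and lines that only join the arrays in order of that level. Vascepa replicate 3 sits at the upper right, at 7.36 and 0.63, and Vascepa replicate 1 at the lower left, at 5.67 and −0.61.

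The 13 tested members with another order were Rpl4, Rpl5, Rpl7l1, Rpl26, Rpl28, Rps4l, Rps4x, Rps16, Rps18, Rps20, Rps23, Rps27 and Rps29. Rpl26 falls outside the rule for named genes and was named after its values were seen. Of the large subunit 25 of 30 followed the order and of the small subunit 15 of 23. By brightness of the probe, 20 of 23 members with a mean of at least 8 followed it, 14 of 15 between 6 and 8, and 6 of 15 between the filter level and 6. The difference between these classes was not tested. Of the 14 members below the filter level, Rpl22l1 alone followed it.

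Members with and without a small RNA gene inside them gave similar counts. The RefSeq table placed 44 small RNA genes inside 22 of the 67 members. Of the tested members with such a gene inside, 11 of 15 followed the order, and of those without, 29 of 38 did. Their array medians were close, at −0.60, 0.16 and 0.57 with and −0.63, 0.19 and 0.63 without on the Vascepa arrays, and −0.33, 0.31 and −0.16 with and −0.37, 0.27 and −0.08 without on the vehicle arrays. Rpl4, the member in the opposite order, holds 5 such genes.

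With the small nucleolar RNA level as a covariate in limma, the sign of the group difference turned for most members. Of the 53, 47 were then lower in Vascepa livers and 6 higher, with a median of −0.20, and 55.8% of all genes were lower, with a median of −0.03. At an unadjusted p under 0.05, 1 member (1.89%) and 6.06% of all genes passed, and the lowest limma adjusted p of a member was 0.765. The covariate itself was higher on Vascepa replicates 2 and 3 than on any vehicle array.

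**Figure D3:**
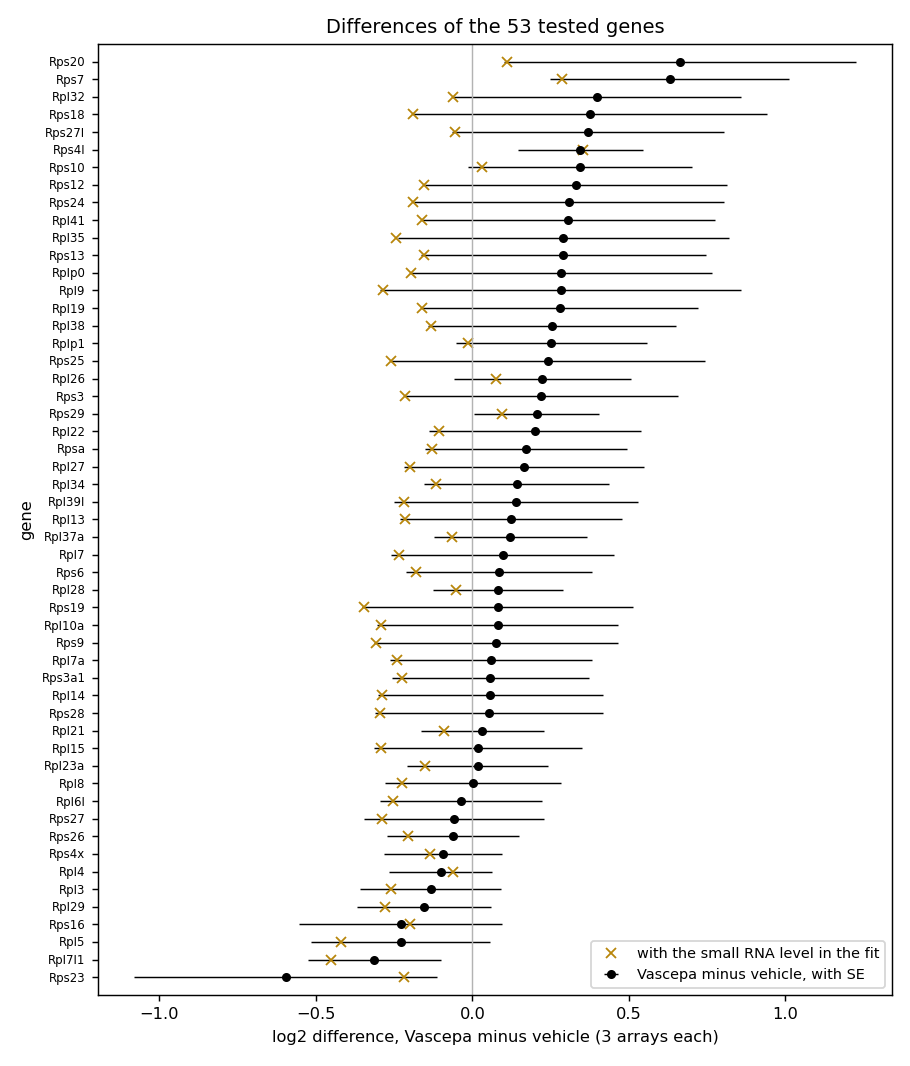
Difference in log2 level, Vascepa minus vehicle (horizontal axis), for each of the 53 tested ribosomal protein genes, as points with limma's standard error, and the same difference with the small nucleolar RNA level in the fit, as crosses without error bars. The points lie between −0.60 and 0.66 with 42 of 53 above 0, and of the crosses 6 lie above 0.

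The widest range over the 6 arrays belonged to Rps18, a protein of the small subunit head. It read 5.92, 7.42 and 8.44 in Vascepa livers, against 6.69, 7.31 and 6.66 in vehicle livers, a range of 2.51. The Vascepa arrays enclosed all vehicle arrays, and its order missed that of the small nucleolar RNAs by the near tie of vehicle replicates 1 and 3. Its means were 7.26 ± 1.26 in Vascepa and 6.89 ± 0.37 in vehicle livers (SD, n = 3 each), a difference of 0.38 (SE 0.57, limma adjusted p = 0.976), and −0.21 without Vascepa replicate 3.

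The narrowest range belonged to Rpl4, a large subunit protein whose long loop lines the peptide exit tunnel. It read 10.89, 10.85 and 10.73 in Vascepa livers, against 10.96, 10.88 and 10.94 in vehicle livers, a range of 0.24. The groups overlapped at a single pair, Vascepa replicate 1 and vehicle replicate 2, and the difference was −0.10 (SE 0.16, limma adjusted p = 0.976). A second Rpl4 probe, dimmer and not used in the test, did not have this flat profile: it read 6.46, 7.11 and 7.25 in Vascepa livers, against 7.10, 6.55 and 6.36 in vehicle livers. The mean of both gave a difference of 0.09, so the sign for Rpl4 depended on the probe.

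Rps6, Rpl21 and Rpl28 were named with Rpl4 for the brightness of their probes. Rps6, the substrate of the S6 kinases and a classic readout of mTORC1 activity at the protein level, read 10.12, 10.92 and 11.09 in Vascepa livers, against 10.33, 10.96 and 10.59 in vehicle livers, a difference of 0.08 (SE 0.30, limma adjusted p = 0.979). It followed the small nucleolar RNA order within both groups, and its difference was −0.11 without Vascepa replicate 3. Rpl21, a large subunit protein, read 10.79, 11.08 and 11.24 in Vascepa livers, against 10.86, 11.18 and 10.97 in vehicle livers, a difference of 0.03 (SE 0.20, limma adjusted p = 0.988), and −0.07 without Vascepa replicate 3. Rpl28, a large subunit protein found in eukaryotes and absent from bacterial ribosomes, read 10.32, 10.83 and 10.82 in Vascepa livers, against 10.49, 10.73 and 10.51 in vehicle livers, a difference of 0.08 (SE 0.21, limma adjusted p = 0.976). In all 3 the lowest array was Vascepa replicate 1.

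Paralogs that can take the place of a core protein were in part under the filter level. Rpl3l, which replaces Rpl3 in heart and skeletal muscle, read 2.04, 2.33 and 2.50 in Vascepa livers, against 2.02, 2.12 and 2.02 in vehicle livers, all under the filter level. Rpl3, which lies near the peptidyl transferase centre, read 6.13, 6.25 and 6.45 in Vascepa livers, against 6.04, 6.73 and 6.45 in vehicle livers, a difference of −0.13 (SE 0.22, limma adjusted p = 0.976). The Rpl3 difference was 0.10 when its 3 probes were averaged and 0.03 without vehicle replicate 2. Rpl22l1, a paralog that Rpl22 represses, also had a mean over the 6 arrays under the filter level. It read 2.23, 2.46 and 2.69 in Vascepa livers, against 2.02, 2.40 and 2.10 in vehicle livers. Rpl22 itself, an RNA-binding large subunit protein, read 2.29, 2.99 and 3.59 in Vascepa livers, against 2.38, 3.00 and 2.89 in vehicle livers, a difference of 0.20 (SE 0.34) and −0.12 without Vascepa replicate 3.

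In the other pairs the levels also differed more between arrays of 1 group than between the groups. Rpl39l, a paralog best known from testis, read 2.54, 3.72 and 4.21 in Vascepa livers, against 3.23, 3.45 and 3.36 in vehicle livers, a difference of 0.14 (SE 0.39) and −0.22 without Vascepa replicate 3. Rpl39, which lines the exit tunnel, had a mean over the 6 arrays under the filter level. It read 2.68, 2.51 and 3.06 in Vascepa livers, against 2.13, 2.68 and 2.47 in vehicle livers. Rps27l, a paralog known as a p53 target, read 5.65, 6.63 and 7.34 in Vascepa livers, against 5.64, 6.63 and 6.24 in vehicle livers, a difference of 0.37 (SE 0.43) and −0.03 without Vascepa replicate 3. The lower Vascepa arrays of Rps27l, at 5.65 and 6.63, lay close to the lowest and the highest vehicle array. Rps27, a zinc finger protein of the small subunit, read 4.35, 5.27 and 5.15 in Vascepa livers, against 4.65, 5.21 and 5.08 in vehicle livers, a difference of −0.06 (SE 0.29), and 0.23 without Vascepa replicate 1. Rpl7, the partner of Rpl7l1 and a binder of ribosomal RNA, read 7.67, 8.54 and 8.94 in Vascepa livers, against 7.83, 8.64 and 8.40 in vehicle livers, a difference of 0.10 (SE 0.36) and −0.18 without Vascepa replicate 3. Limma's adjusted p was 0.976 or above for each tested gene of these pairs.

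Rpl10l, a retrogene of Rpl10 that acts in male germ cells, was the remaining member whose groups did not overlap, and it was named after its values were seen. It read 1.77, 1.77 and 2.05 in Vascepa livers, against 1.49, 1.68 and 1.41 in vehicle livers. All of these lie under the filter level, so it was not tested. Without a filter, the groups did not overlap for 3 of 67 members (4.48%) and for 9.17% of all 22180 genes.

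The members were short genes. Their span, from the first to the last base of the gene in RefSeq, ran from 592 to 9647 bases with a median of 3164, against a median of 22135 bases for all protein-coding genes tested. The longest were Rpl22 at 9647, Rpl7l1 at 8750 and Rpl5 at 8498 bases. The shortest were Rpl32l at 592, Rps4l at 941 and Rpl6l at 945 bases. Rpl6l read 7.43, 8.03 and 8.30 in Vascepa livers, against 7.74, 8.15 and 7.97 in vehicle livers, with the array order of the coding members and a difference of −0.04 (SE 0.26, limma adjusted p = 0.988). Rpl32l stayed between 0.81 and 1.08 on all arrays, far under the filter level.

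Other protein-coding genes of short span had array medians nearer to 0. Those under 5 kb had a median of −0.08, 0.01 and 0.11 on Vascepa replicates 1, 2 and 3, against −0.07, 0.11 and −0.03 on the vehicle replicates, and 17.9% of 1596 had the small nucleolar RNA order. Those of 80 kb and over ran the other way, at 0.22, −0.05 and −0.33 in the Vascepa livers, against 0.18, −0.10 and 0.13 in the vehicle livers, with 3.18% in that order and 33.1% in the opposite one. Genes under 10 kb with a mean level of at least 8, the closest in span and brightness to the 23 brightest members, had medians of −0.12, 0.02 and −0.01 in the Vascepa livers, against −0.06, 0.15 and 0.06 in the vehicle livers. Of these 237 genes, 35.4% followed the order, against 20 of the 23 members. The array medians of the members lay farther from 0 than those of these classes on every array but vehicle replicate 3, a difference that was not tested, and the part of span in the members' values was not tested.

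**Figure D4:**
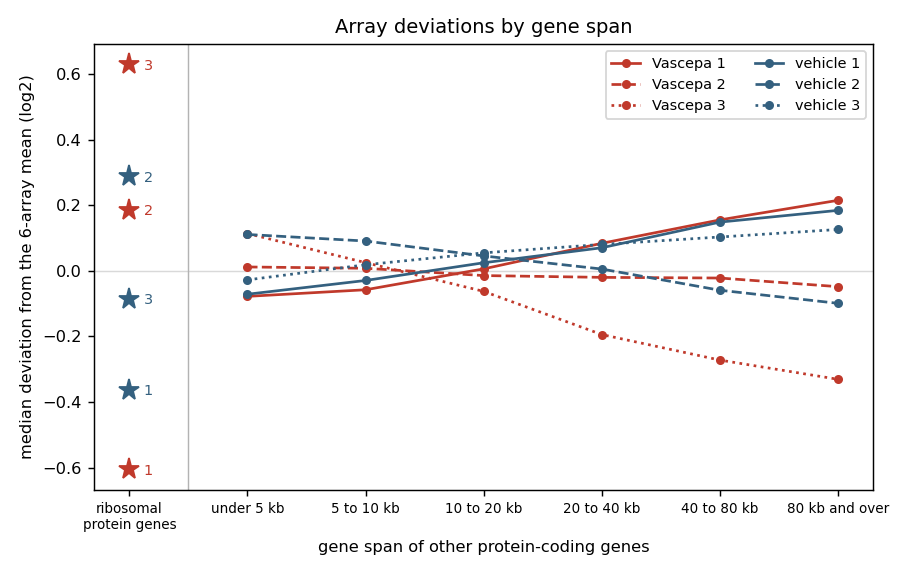
Median deviation from each gene's mean (vertical axis, log2 units) on each array, as stars for the 53 ribosomal protein genes and as 1 line per array for other protein-coding genes in classes of gene span (horizontal axis). On Vascepa replicate 3 the members lie at 0.63, other genes under 5 kb at 0.11 and genes of 80 kb and over at −0.33.

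**Figure D5:**
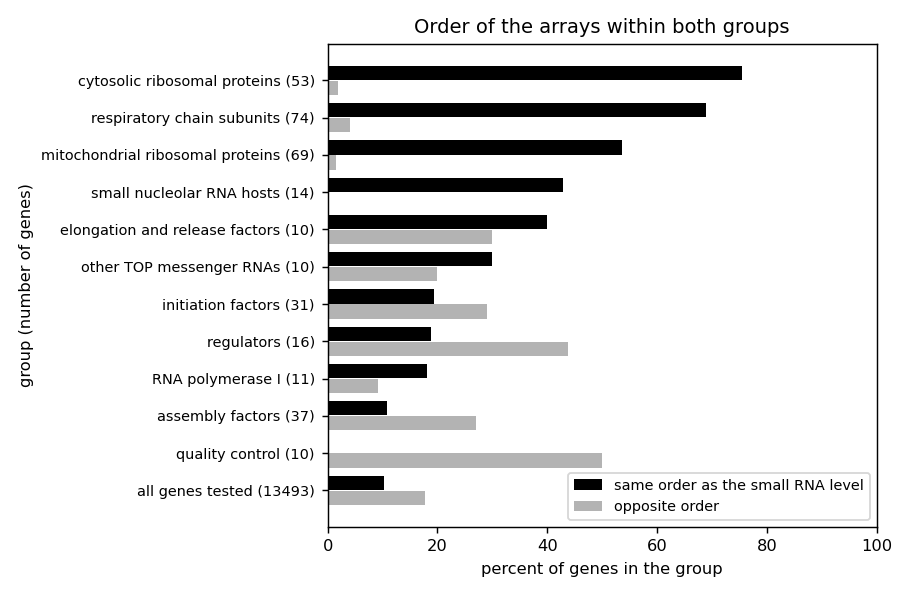
Share of genes in each set, in percent, whose arrays had the order of the small nucleolar RNA level within both groups (black bars) or the opposite order in both (grey bars), for the ribosomal protein genes, related lists and all genes tested. In the first share the members stand at 75.5%, respiratory chain subunits at 68.9%, mitochondrial ribosomal proteins at 53.6% and all genes at 10.3%.

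Other genes of the translation machinery had lower shares in that order than the members, though above the 10.3% of all genes. These differences between shares were not tested. Of 31 translation initiation factors, 10 were above 0 (32.3%, against 39.9% of all genes) with a median of −0.10. The small nucleolar RNA order was followed by 6 initiation factors (19.4%), and 9 had the opposite order (29.0%, against 17.7% of all genes). Eif2b2, a subunit of the exchange factor for eIF2, had the smallest p among them, at 5.08, 4.96 and 4.04 in Vascepa livers, against 5.14, 5.34 and 5.39 in vehicle livers, a difference of −0.60 (SE 0.29, limma adjusted p = 0.976), and −0.27 without Vascepa replicate 3. Of 10 elongation and release factors, 6 were above 0 (60%) with a median of 0.02. In this list 3 had the opposite order (30%) and 4 followed the order (40%). Eef1a1, which delivers aminoacyl transfer RNA, did, at 12.05, 12.43 and 12.63 in Vascepa livers, against 12.18, 12.50 and 12.34 in vehicle livers. Eef2, the translocation factor and itself a TOP messenger RNA, ran opposite, at 10.63, 10.26 and 9.55 in Vascepa livers, against 10.61, 10.38 and 10.55 in vehicle livers. None of these genes passed the test in either direction.

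Other known TOP messenger RNAs were mixed as well. Of 10, 7 were above 0 (70%) with a median of 0.05, 3 followed the order (30%) and 2 had the opposite one (20%). Fau has a symbol outside the naming pattern of the members, and its product is cut into a small subunit protein and a ubiquitin-like part. It read 9.11, 10.30 and 10.75 in Vascepa livers, against 9.58, 10.37 and 10.01 in vehicle livers. Its profile was that of the members, and its difference was 0.06 (SE 0.42, limma adjusted p = 0.988). Tpt1, a small growth-related protein, read 8.42, 9.18 and 10.01 in Vascepa livers, against 8.76, 8.93 and 8.63 in vehicle livers, a difference of 0.43 (SE 0.37, limma adjusted p = 0.976), and 0.02 without Vascepa replicate 3. Vim, the intermediate filament of mesenchymal cells, read 5.65, 5.61 and 4.94 in Vascepa livers, against 6.04, 5.72 and 6.09 in vehicle livers, a difference of −0.55 (SE 0.24, limma adjusted p = 0.976), and −0.32 without Vascepa replicate 3. Pabpc1 and Nap1l1, also with TOP starts, had their lowest array at Vascepa replicate 3, against the members.

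Among genes that make or check ribosomes, 0% to 18.8% of a list had the order of the ribosomal proteins. The shorter lists hold 10 to 16 genes, so 1 or 2 genes move their shares. Of 37 ribosome assembly factors, 4 followed the order (10.8%, against 10.3% of all genes) and 10 had the opposite order. Of the same 37, 16 were above 0 (43.2%, against 39.9% of all genes) with a median of −0.05. Ebna1bp2, a nucleolar factor for large subunit precursors, was the only gene of the 10 lists of related genes at an unadjusted p under 0.05, at 4.44, 4.25 and 4.25 in Vascepa livers, against 4.84, 4.81 and 4.74 in vehicle livers. Its groups did not overlap, and its difference of −0.48 (SE 0.17) had a limma adjusted p of 0.976. Nop56, a core protein of small nucleolar RNA particles whose gene hosts several of them, read 4.91, 5.77 and 6.60 in Vascepa livers, against 4.97, 5.42 and 4.86 in vehicle livers, a difference of 0.67 (SE 0.40, limma adjusted p = 0.976), and 0.26 without Vascepa replicate 3. Ncl, the nucleolar protein nucleolin, read 6.46, 6.14 and 5.44 in Vascepa livers, against 6.69, 5.73 and 6.32 in vehicle livers. Of 11 subunits and factors of RNA polymerase I, 7 were above 0 with a median of 0.03 and 2 followed the order (18.2%). Of 16 regulators of ribosome production, among them Myc and the S6 kinase gene Rps6kb2, 2 were above 0 with a median of −0.25, which was −0.02 without Vascepa replicate 3. Myc, a transcription factor that drives ribosome production, was one of them, at 4.36, 4.33 and 3.97 in Vascepa livers, against 3.87, 4.09 and 3.51 in vehicle livers. Of the 16 regulators, 3 followed the order (18.8%) and 7 had the opposite one (43.8%, against 17.7% of all genes). Of 10 genes of ribosome quality control, 1 was above 0 with a median of −0.21, and the median was 8.9e-05 without Vascepa replicate 3. The gene above 0 was Gcn1, a sensor of collided ribosomes, at 6.05, 5.80 and 6.22 in Vascepa livers, against 5.07, 5.88 and 5.60 in vehicle livers. Of the 10 quality control genes, 0 followed the order and 5 had the opposite one (50%). The differences between these shares and those of all genes were not tested.

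Of the 10 related lists, the 2 with the highest share in that order were mitochondrial. Of 74 nuclear respiratory chain subunits 51 followed the small nucleolar RNA order (68.9%), with medians of −0.47, 0.17 and 0.43 in the Vascepa livers, against −0.30, 0.27 and −0.02 in the vehicle livers. Of 69 mitochondrial ribosomal proteins 37 did (53.6%), with medians of −0.35, 0.12 and 0.35 in the Vascepa livers, against −0.25, 0.24 and 0.01 in the vehicle livers. The list of small nucleolar RNA host genes had medians of −0.51, 0.29 and 0.77 in the Vascepa livers, against −0.48, 0.19 and −0.13 in the vehicle livers. Of its 14 genes, 6 followed the exact order. The 14 include Rnu12, a small nuclear RNA gene with a span of 150 bases that is not such a host gene. Rnu12 read 5.36, 6.83 and 7.40 in Vascepa livers, against 5.70, 6.26 and 5.96 in vehicle livers, and is among the 6. The group medians of the 3 lists, Vascepa minus vehicle, were 0.09 for the respiratory chain, 0.00 for the mitochondrial ribosome and 0.31 for the host gene list. Without Vascepa replicate 3 they were −0.11, −0.14 and 0.07 in the same order of lists, and without Vascepa replicate 1 they were 0.34, 0.25 and 0.56. All 3 lists shared the low value on Vascepa replicate 1 and the high value on Vascepa replicate 3 with the cytosolic ribosomal proteins.

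Probes shared between a ribosomal protein gene and other genes gave a further reading of the same arrays. Of 52 such probes at or above the filter level, 48 were above 0 with a median of 0.16, and 29 had the small nucleolar RNA order. Their medians were −0.53, 0.26 and 0.69 in the Vascepa livers, against −0.40, 0.23 and −0.17 in the vehicle livers. Of the other distinct probes of the members themselves, 27 were at or above the filter level. Of these, 26 were above 0 with a median difference of 0.23, and 14 followed the order. Their array medians were −0.47, 0.16 and 0.76 in the Vascepa livers, against −0.27, 0.17 and −0.17 in the vehicle livers. These probes measure the same RNA samples and partly the same genes, so they are not independent of the members' values.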

How the data were processed

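Liver RNA of 6 samples was hybridised as biotin-labelled target to Affymetrix arrays. The authors deposited a log2 level for each transcript cluster, called a probe here, on each array. RMA and Affymetrix Expression Console are the tools named, per the submitters' processing notes. The sources used here give neither tool versions nor the array's genome build. RMA usually includes quantile normalization, which makes distributions equal, and compresses differences of dim probes. The deposited arrays did not share a distribution: probe medians ran from 2.62 to 2.81 and interquartile ranges from 2.41 to 2.75 log2 units, and Vascepa replicate 3 had the highest median and the narrowest range. Slide and scan date were unknown, which left no batch to test, and precision is limited by there being few arrays.

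The table held 41345 probes. Gene names came from the platform annotation, with symbols updated through RefSeq (GRCm38.p6) for 23328 of 23521 single-symbol probes. Vascepa minus vehicle was estimated from the deposited values by limma 3.58.1 (lmFit, eBayes; R 4.3.3) without covariates, on genes whose brightest probe reached a mean of 2.65. The threshold was an adjusted p (Benjamini-Hochberg, over 13493 genes) under 0.05. An exact permutation test of 3 against 3 arrays cannot go below 0.1 and was not used. On simulated data (20 sets modelled on this comparison, 13493 genes each, of which 200 were changed), the fit recovered 25.6% of changed genes at a log2 difference of 1 and 76% at 2, with 4.21% false calls.

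The members, the gene lists and the small RNA comparison were chosen with earlier results of these data known. Named members were the 5 with the smallest p in each direction, the 4 with the highest mean, the 3 longest and 3 shortest, the widest and narrowest in range, and the paralog pairs. In related lists the genes with the smallest p and a few well-known genes were named. Alternatives are given in the closing section.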

Additional observations from a re-analysis of the deposited data

How the results depend on the processing

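In simulated data with 3 arrays a group and independent genes, a change of log2 1 was often missed. The 0 calls therefore do not show that levels were equal. By limma, 0 members and 0 genes passed after adjustment with any array left out, and members at an unadjusted p under 0.05 numbered 0 to 15, members above 0 7 to 45, members without overlap 2 to 18, all genes at an unadjusted p 141 to 2018, all genes without overlap 1771 to 4290 and all genes in the small RNA order 1873 to 2314. Median differences with an array left out ran from −0.15 to 0.47 for the members, from −0.070 to 0.036 for elongation factors, from −0.42 to −0.02 for regulators, from −0.46 to 8.9e-05 for quality control, from 0.07 to 0.56 for host genes, from −0.14 to 0.25 for mitochondrial ribosomal proteins, from −0.11 to 0.34 for the respiratory chain, from −0.06 to 0.28 for TOP messenger RNAs, from −0.12 to 0.04 for assembly factors and from −0.02 to 0.17 for RNA polymerase I.

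Array quality weights gave Vascepa replicate 2 a weight of 39.5, against 2.33 or less for any other array, did not fully converge, and called 8 members (26 unadjusted) and 4100 genes (5902 unadjusted) with an initiation factor median of −0.041. The small RNA covariate called 2 genes (818 unadjusted), 1 member unadjusted, left 6 members above 0 and gave elongation factors −0.10. Members without overlap were 1 of 53 under median centring and under a centring on named probes that was chosen after seeing the data. They were 1 of 53 under a repeated quantile normalization and 1 of 44 under the stricter filter. In the same order, 1278 (9.47%), 1064 (7.89%), 999 (7.41%) and 495 of 7211 (6.86%) of all genes were without overlap, against 1112 (8.24%) as reported. Initiation factors had medians of −0.17, 0.0047 and −0.020 under these 3 normalizations, and elongation factors 0.12 under the added centring, where 2113 genes had the small RNA order. Genes at an unadjusted limma p under 0.05 were 757 of 22180 without a filter (2033 without overlap, 9.17%) and 106 of 7211 under the stricter one. The members' median was below 0 without Vascepa replicate 3 (−0.15) and without vehicle replicate 1 (−0.029), and the cause was not tested.

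Signs turned for some named genes. With the covariate these were Rpl21 (−0.091), Rpl22 (−0.11), Rpl28 (−0.052), Rpl39l (−0.22), Rpl7 (−0.23), Rps18 (−0.19), Rps27l (−0.056), Rps6 (−0.18), Eef1a1 (−0.11), Fau (−0.34), Abce1 (0.020), Ncl (0.054), Pabpc1 (0.023) and Polr1a (0.37). With median centring they were Rpl21 (−0.044), Eef1a1 (−0.043) and Fau (−0.011). With the added centring they were Rpl6l (0.062), Rps27 (0.042), Rps4x (0.0068) and Polr1a (0.098). Repeated quantile normalization turned Rps27 (0.067), Eef1a1 (−0.013) and Polr1a (0.0091), averaged probes Rpl3 (0.099), Rpl4 (0.086) and Eef1a1 (−0.13), and weights Rpl6l (0.068), Rps16 (0.16), Rps27 (0.24) and Rps4x (0.17). With an array left out, the differences ran from −0.071 to 0.15 for Rpl21, −0.12 to 0.53 for Rpl22, −0.0045 to 0.25 for Rpl28, −0.32 to 0.027 for Rpl3, −0.22 to 0.61 for Rpl39l, −0.23 to 0.21 for Rpl6l, −0.18 to 0.45 for Rpl7, −0.21 to 1.04 for Rps18, −0.23 to 0.23 for Rps27, −0.028 to 0.81 for Rps27l, −0.11 to 0.38 for Rps6, −0.56 to 0.089 for Abce1, −0.097 to 0.19 for Eef1a1, −0.28 to 0.53 for Fau, −0.49 to 0.055 for Ncl, −0.46 to 0.023 for Pabpc1 and −0.45 to 0.41 for Polr1a. Differences that kept their sign also moved, from −0.46 to −0.01 for Rpl5, −0.31 to −0.03 for Rpl29, −0.62 to −0.0032 for Rps16, −0.41 to −0.13 for Rpl7l1, 0.23 to 1.33 for Rps20, 0.24 to 0.92 for Rps7, −1.11 to −0.02 for Rps23, 0.01 to 0.59 for Rps10, 0.10 to 0.36 for Rps29, −0.23 to −0.01 for Rps4x and 0.02 to 0.82 for Tpt1. The cause was not tested.

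Same-numbered arrays of the groups deviated together at r of 0.61, 0.11 and −0.13, so the numbers were not taken as pairs. With the replicate number as a block, 0 members and 0 genes passed, 42 members were above 0 with a median of 0.12, and 438 genes had an unadjusted p under 0.05. Of 789 values of named genes under an alternative, 713 kept direction and call.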
